A study of Mus musculus with 4 samples.

Results

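The ERK feedback genes described here are 10 genes whose transcripts are used as a readout of signalling by the kinase ERK: the phosphatases Dusp4, Dusp5 and Dusp6, the Sprouty genes Spry1, Spry2 and Spry4, the Spred genes Spred1 and Spred2, and the transcription factors Etv4 and Etv5. They were found by symbol, as every probe set that the platform annotation assigns to exactly 1 gene and to one of these names. This gave 10 of the 18193 genes with a probe set of their own, through 28 of the 45037 probe sets on the array that are not controls. The study compared 2 samples of E14Tg2A.4 cells exposed for 1 h to 25 ng/ml of BMP-2 with 2 untreated samples of the same cells, each hybridised as biotinylated cRNA to its own one-colour Affymetrix array. E14Tg2A.4 is a male mouse embryonic stem cell line that lacks Hprt, and all 4 arrays carry RNA of this line with no other genetic change in the labels. The medium (serum, LIF) is not given in the sources used here, nor is it said that replicates were grown separately, so the spread behind each p-value is that of these samples and could be technical.

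Growth factor receptors, among them the FGF receptors, switch on RAS, which activates RAF, MEK and ERK in turn. Active ERK enters the nucleus and turns on a set of genes whose products switch the pathway off again: dual-specificity phosphatases remove phosphate from ERK, and Sprouty and Spred proteins act further up, around RAS and RAF. Embryonic stem cells make their own FGF4, and the ERK activity it drives prepares them to leave self-renewal, whereas BMP acts together with LIF to keep them in it. The comparison of BMP-2 treated with untreated cells therefore asks, for these genes, whether the transcripts that follow ERK activity differed after 1 h of BMP-2.

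Values are MAS5 signals, a linear measure of brightness with no fixed unit, and differences are given as log2 of the BMP-2 treated over the untreated signal. Signals of different probe sets are not compared with one another, because each probe set has its own sensitivity. Probe sets with a mean log2 signal above the 40th percentile (a signal of 53.0) were tested, 27022 in all, and 27 of the 28 ERK feedback probe sets were among them. Where a gene has several probe sets, the brightest tested one stands for it, and for the ERK feedback genes the others are described beside it. Array medians lay between 81.8 and 94.9, with replicate 2 above replicate 1 in both groups. With 2 arrays a group, precision is low throughout. As a check of the labels, Id1, Id2 and Id3, which encode inhibitors of basic helix-loop-helix factors and are direct BMP targets, rose 3.14-, 3.38- and 3.32-fold (limma adjusted p = 2.0e-05, 3.6e-05 and 3.6e-05) and were the named BMP targets that passed, with all 5 of that list higher.

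None of the 27 tested ERK feedback probe sets passed an adjusted p of 0.05 in limma, whose calls covered 0.0185% of all tested probe sets (5 of 27022). At an unadjusted p under 0.05 there were 3, those of Dusp5, Dusp6 and Spred2, all higher in BMP-2 treated cells, and 0 were lower; over all tested probe sets these shares were 1.91% and 1.15%. Of the 10 genes, 6 were higher and 4 lower on their brightest probe set, beside 53% higher among the 12976 tested genes. The median difference of the 10 genes was 0.06 log2, and that of all tested genes 0.01. With Dusp5 left out, the median of the remaining 9 genes was 0.00 log2. Without untreated replicate 2 the median of the 10 genes was 0.010, and without each of the other arrays it ran from 0.065 to 0.090. Dusp5 stood apart from the rest in size, at 0.82 log2. For 8 of the 10 genes the difference was smaller than 0.25 log2 in either direction.

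**Figure D1:**
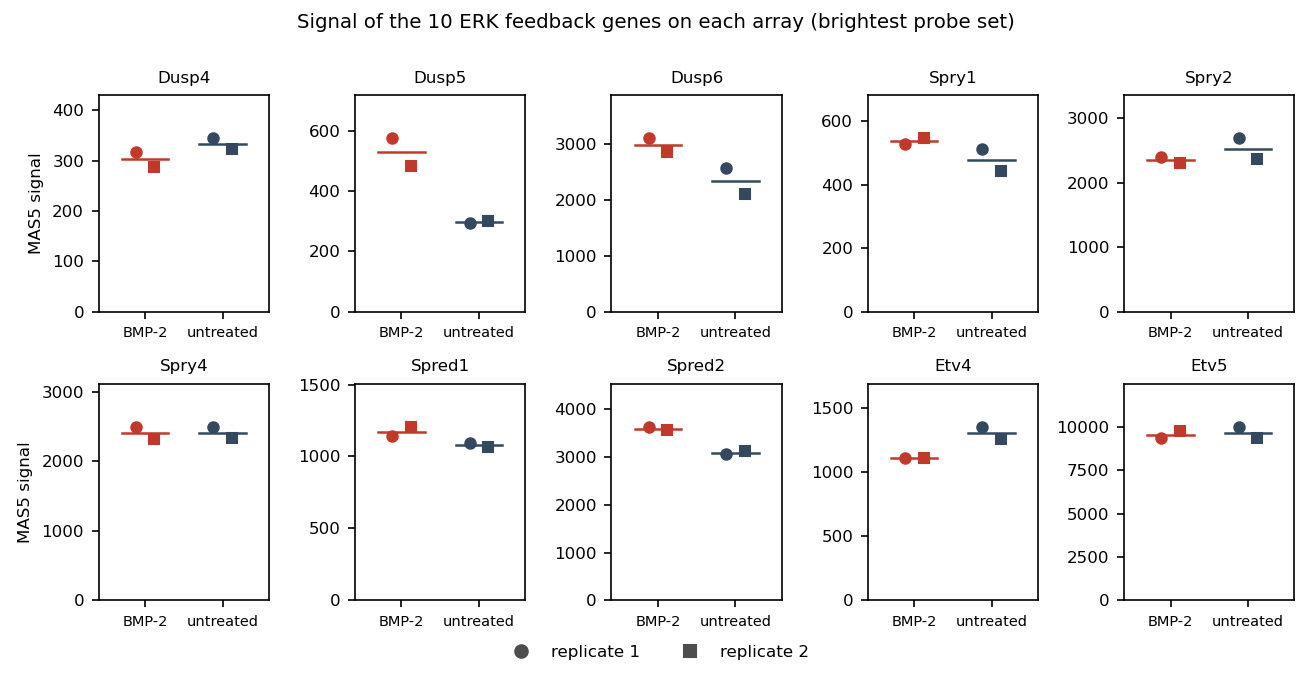
MAS5 signal (linear axis from 0) of the brightest probe set of each of the 10 ERK feedback genes, with the BMP-2 treated arrays in red on the left and the untreated arrays in dark blue on the right; circles are replicate 1, squares replicate 2 and lines the group means (n = 2 each). Dusp5 shows the largest ratio between the groups, 575 and 482 against 294 and 301, while Spry4 and Etv5 lie at the same height in both groups.

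The phosphatase group held the largest difference. Dusp5 (probe set 1437199_at), a nuclear phosphatase that is specific for ERK, read 575 and 482 on the 2 BMP-2 treated arrays, against 294 and 301 on the 2 untreated arrays. Both treated signals were thus above both untreated ones, and the treated arrays differed from each other more than the untreated ones did. The means were 528 ± 65.2 with BMP-2 and 297 ± 5.02 without (SD, n = 2 each), a ratio of 1.77 (95% interval 1.40 to 2.24). In limma the log2 difference of 0.82 ± 0.15 (SE) had an unadjusted p of 2.97e-04 and an adjusted p of 0.423, so it did not pass over all tested probe sets. Only 1 probe set measures Dusp5 here, so no second probe set bears on this value. The difference of Dusp5 exceeded that of 99.3% of the tested genes. Leaving out BMP-2 replicate 2 gave 0.95 log2 and an adjusted p of 0.0095, leaving out BMP-2 replicate 1 gave 0.70 log2 and 0.299, and the adjusted p ran from 0.0095 to 1.00 over 12 alternative settings.

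Dusp6 (1415834_at), the cytoplasmic phosphatase that binds ERK and is the classical feedback target of FGF signalling, read 3109 and 2864 in BMP-2 treated cells, against 2583 and 2105 in untreated cells. The groups did not overlap, but the 2 untreated arrays lay 0.30 log2 apart, nearly as far as the groups. Its log2 difference was 0.36 ± 0.11 (SE, 95% interval 0.11 to 0.60, limma unadjusted p = 0.0087, adjusted p = 1.00), and it ran from 0.21 without untreated replicate 2 to 0.50 without untreated replicate 1. Dusp4 (1428834_at), a nuclear phosphatase that acts on ERK and also on JNK and p38, read 318 and 286 with BMP-2, against 344 and 322 without. These treated signals were both slightly below the untreated ones, and the difference of -0.14 ± 0.16 log2 (SE, limma adjusted p = 1.00) was smaller than its error. Of the 3 phosphatases, none of which passed the adjusted threshold, 2 had a difference above 0 and 1 below it, and the contrast between them was not tested.

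The stretches of 250 bases before the starts of Dusp5 and Dusp6 are shown because these genes had the largest differences of the 10. They come from RefSeq on GRCm38.p6, plus strand, at chr19:53528895-53529144 for Dusp5 and chr10:99262981-99263230 for Dusp6, and capitals mark matches to the motifs named after them.

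Dusp5: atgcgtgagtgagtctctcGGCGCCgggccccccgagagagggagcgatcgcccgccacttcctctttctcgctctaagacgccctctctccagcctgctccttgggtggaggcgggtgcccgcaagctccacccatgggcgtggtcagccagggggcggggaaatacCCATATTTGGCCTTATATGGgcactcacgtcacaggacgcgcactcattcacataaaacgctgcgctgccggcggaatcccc
Dusp6: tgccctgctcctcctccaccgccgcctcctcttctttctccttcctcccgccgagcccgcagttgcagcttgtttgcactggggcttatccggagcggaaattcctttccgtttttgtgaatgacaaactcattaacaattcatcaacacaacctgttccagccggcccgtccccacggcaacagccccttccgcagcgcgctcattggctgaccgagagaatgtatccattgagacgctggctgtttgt

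Both strands were searched for GGCGCC, a GC-rich sequence known to be bound by SMAD1 and SMAD5, for the CArG box bound by serum response factor, for CCGGAAG (ETS factors), for TGANTCA (AP-1) and for TGACGTCA (CREB). The Dusp5 stretch held GGCGCC, 231 to 226 bases before the start, and a pair of adjoining CArG boxes, at 82 to 73 and 72 to 63 bases before it. The Dusp6 stretch held none of the 5 motifs, which says only that these letters do not occur in that window. Windows on a single chromosome were left out of the search, for the 10 genes and for all others. Of the 32851 windows that remained, 1.47% held a CArG box and 9.59% held GGCGCC. A gene without a window in the search need not lie on the chromosome left out. Of the 10 genes, 7 had a RefSeq window in the search, 8 windows in all. Among them the CArG box occurred only in that of Dusp5, and GGCGCC also occurred in those of Spred1 and Etv5, which differed by 0.12 and -0.02 log2. A match describes the letters of the window and is neither a bound site nor a cause of a signal.

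The Sprouty genes encode membrane-associated inhibitors that are phosphorylated after growth factor stimulation and block signalling between the receptor and RAF. Spry4 on its brightest probe set (1440867_at) read 2492 and 2327 in BMP-2 treated cells, against 2487 and 2331 in untreated cells, so the arrays of equal number were the same to within 5 signal units. The difference was 0.00 log2 with a 95% interval of -0.20 to 0.20. Its other probe sets gave 0.01, 0.07 and 0.32 log2. The last of these, the dimmest, read 256 and 239 against 181 and 216 without overlap (limma adjusted p = 1.00). It was designed from the same sequence record as the probe set at 0.07 log2, whose groups overlapped. Spry2 (1436584_at) read 2404 and 2305 with BMP-2, against 2687 and 2368 without, which overlapped, and its difference was -0.10 log2 (95% interval -0.31 to 0.11). The second Spry2 probe set, dimmer, read 408 and 424 against 506 and 465, both below the untreated arrays, with -0.22 log2 (95% interval -0.53 to 0.08). Spry1 (1415874_at) read 530 and 546 with BMP-2, against 514 and 444 without, a difference of 0.17 log2 (95% interval -0.14 to 0.48) in which untreated replicate 2 was the lowest of the 4 arrays. No Sprouty probe set had an unadjusted p under 0.05.

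The Spred genes encode relatives of the Sprouty proteins that bind neurofibromin and hold RAS and RAF in check. Spred2 (1434403_at) read 3619 and 3552 with BMP-2, against 3059 and 3111 without, and both groups were narrow: the arrays of a group lay within 0.03 log2 of each other. The difference of 0.22 ± 0.08 log2 (SE, 95% interval 0.04 to 0.39) had a limma unadjusted p of 0.0214 and an adjusted p of 1.00. This is a ratio of 1.16, and it ran from 0.19 to 0.23 log2 over 12 alternative settings. Of the 4 other Spred2 probe sets 3 were higher and 1 lower. The one at 309 and 348 against 289 and 204 did not overlap (0.43 log2, 95% interval -0.01 to 0.88), and the dimmest 2 differed by 0.49 and -0.66 log2 with intervals of -0.64 to 1.62 and -1.96 to 0.64.

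Spred1 (1423160_at) read 1142 and 1204 with BMP-2, against 1092 and 1069 without, a small gap with no overlap (0.12 log2, 95% interval -0.11 to 0.35). Its 7 tested probe sets ran from -0.17 to 0.12 log2, 4 higher and 3 lower. They are not independent, since 7 of the 8 Spred1 probe sets share their source sequence with another, and 4 of the 8 are of the kinds whose probes may also match other transcripts. The eighth read 1.26 and 1.56 with BMP-2, against 2.05 and 11.4 without, too dim to be tested.

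**Figure D2:**
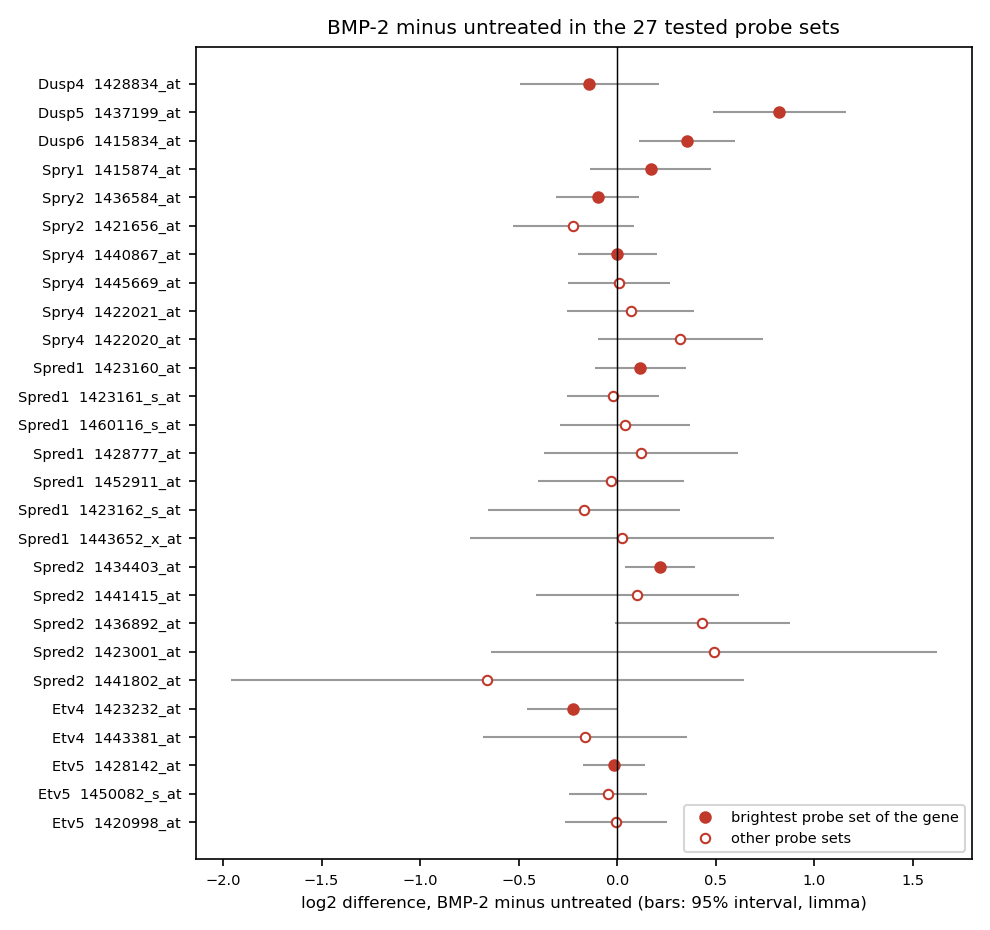
Log2 difference, BMP-2 treated minus untreated (horizontal axis), for the 27 tested probe sets of the ERK feedback genes, with 95% intervals from limma as bars; filled points are the brightest probe set of a gene and open points the others. The intervals of Dusp5, Dusp6 and the brightest Spred2 probe set lie above 0, before adjustment for the number of probe sets, and the widest intervals belong to the dimmest probe sets.

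Etv4 and Etv5 encode ETS factors of the PEA3 group, whose transcripts follow FGF and ERK signalling in many tissues of the mouse embryo. Etv4 (1423232_at) read 1115 and 1115 with BMP-2, against 1353 and 1257 without, so both treated arrays lay below both untreated ones. Its difference was -0.23 ± 0.10 log2 (SE, 95% interval -0.46 to 0.00, limma unadjusted p = 0.052, adjusted p = 1.00), and it ran from -0.28 to -0.17 over 12 alternative settings. The dimmer Etv4 probe set gave -0.17 log2, with 120 and 136 against 152 and 136. Etv5 (1428142_at) read 9346 and 9766 with BMP-2, against 9992 and 9358 without, and the groups overlapped (-0.02 log2, 95% interval -0.17 to 0.14). The other Etv5 probe sets gave -0.05 and -0.01 log2, and those 2 were designed from the same sequence record. Etv4 thus lay opposite in sign to Dusp5, Dusp6 and Spred2, although all are used as readouts of the same pathway; a test of that contrast was not run.

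On the brightest probe set, the 2 BMP-2 treated arrays were both above the 2 untreated ones for 5 of the 10 genes (Dusp5, Dusp6, Spry1, Spred1 and Spred2), beside 16.4% of all tested genes, and both below for 2 (Dusp4 and Etv4), beside 12.4%. Over the 27 tested probe sets these counts were 7 and 3, beside 15.9% and 12.5% of all tested probe sets. On the brightest probe sets, the gaps between the group means other than those of Dusp5 and Dusp6 were each under 0.25 log2. The dimmer probe sets without overlap included those of Spry4 at 0.32 and Spred2 at 0.43 log2. A lack of overlap says nothing of the size of a difference, and probe sets of 1 gene are not independent. Between arrays of equal replicate number, 8 of the 10 genes had the same sign in both ratios, 5 higher and 3 lower, beside 50.7% of all tested genes with equal signs. The 2 ratios were 0.97 and 0.68 log2 for Dusp5, 0.27 and 0.44 for Dusp6, 0.24 and 0.19 for Spred2 and -0.28 and -0.17 for Etv4. Spry1 (0.04 and 0.30) and Spred1 (0.06 and 0.17) had 1 ratio near 0, and the remaining genes stayed within 0.17 log2 of 0 in both.

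**Figure D3:**
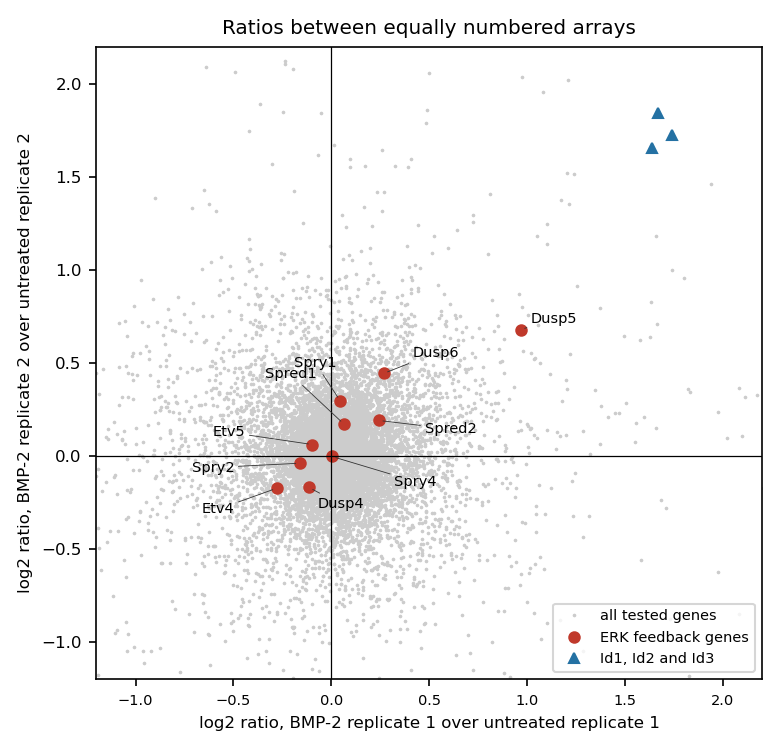
Log2 ratio of BMP-2 treated replicate 1 over untreated replicate 1 (horizontal) against that of replicate 2 over replicate 2 (vertical), for the brightest probe set of each tested gene in grey, the ERK feedback genes in red and Id1, Id2 and Id3 as blue triangles; 146 of the 12976 genes lie outside the axes. Dusp5 lies at 0.97 and 0.68, Dusp6 at 0.27 and 0.44, and the other 8 genes closer to 0.

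The other genes of the pathway were followed as lists by role, with counts, medians, ranges and smallest p-values taken over the brightest probe set of each gene. Of 8 FGF ligands and receptors 7 were tested, with 6 higher and 1 lower (5 and 2 after quantile normalization), a median of 0.05 log2, a range of -0.67 to 0.47 and none past an adjusted p of 0.05 in limma. Fgf4, the ligand that embryonic stem cells make, read 4056 and 4075 with BMP-2, against 3918 and 3858 without (0.06 log2, 95% interval -0.11 to 0.24), and its other probe sets gave 0.06 and 0.05. Fgfr1 overlapped (0.05 log2), and its dimmer probe sets gave -0.13 and 0.25. The smallest p-values were those of Fgf15, a ligand of the endocrine FGF group, with 771 and 647 against 512 and 518 (0.46 log2, unadjusted p = 0.0070, adjusted p = 1.00), and Fgfr3, with 338 and 332 against 240 and 242 (0.47 log2, unadjusted p = 0.0142, adjusted p = 1.00). A dimmer Fgfr3 probe set differed by -0.15 log2.

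Between the receptor and ERK the medians of the lists lay close to 0. Among adaptors and exchange factors 8 of 9 genes were tested, 5 higher and 3 lower, with a median of 0.02 log2. The smallest p-values there belonged to Sos2, a RAS exchange factor, at 0.49 log2 (95% interval -0.02 to 1.00) and Shc1, an adaptor, at -0.15 (95% interval -0.38 to 0.09). A dimmer Shc1 probe set gave -0.08 log2. Of 14 genes of the RAS, RAF, MEK and ERK cascade 7 were tested, 4 higher and 3 lower with a median of 0.02 log2, and these counts became 3 and 4 after quantile normalization. Nras and Map2k2, which encodes MEK2, had the smallest p-values among the brightest probe sets, with 0.13 and 0.10 log2, both with intervals that include 0. Dimmer probe sets gave 0.039 and -0.006 log2 for Nras and -0.015 for Map2k2. The list of other pathway inhibitors (13 of 14 tested) had 9 higher and 4 lower, a median of 0.05 log2 and a range of -0.09 to 0.26. In it Il17rd, which encodes the FGF signalling inhibitor SEF, differed by 0.11 log2 and Pebp1, the RAF kinase inhibitor protein, by 0.07. On the brightest probe sets, these 3 lists had no gene past an adjusted p of 0.05 in limma, nor at an unadjusted p under 0.05. A dimmer probe set of Araf, a RAF kinase, named here after its values were seen, read 377 and 370 with BMP-2, against 287 and 302 without (0.34 log2, 95% interval 0.00 to 0.68, limma unadjusted p = 0.0473, adjusted p = 1.00).

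**Figure D4:**
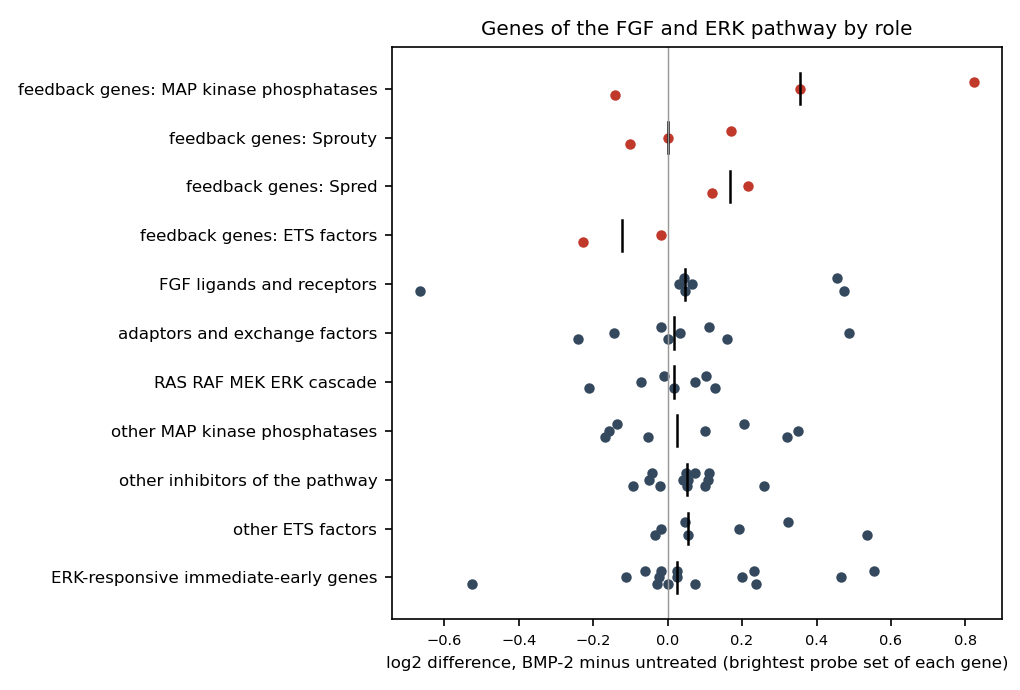
Log2 difference, BMP-2 treated minus untreated, for the brightest probe set of each tested gene of the FGF and ERK pathway by role, with the ERK feedback genes in red, other genes in dark blue and a black bar at the median of each row. Medians of the dark blue rows lie between 0.02 and 0.06 log2, and Dusp5 at 0.82 is the point farthest to the right.

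The other phosphatases of MAP kinases, a list of 8 genes that were all tested, had 4 higher and 4 lower with a median of 0.02 log2 (-0.01 after quantile normalization). Dusp9, an ERK phosphatase that is known as a BMP4-induced gene in mouse embryonic stem cells, was higher on all 3 of its probe sets with no overlap on any. These are not independent, since the brightest and the dimmest Dusp9 probe sets were designed from the same sequence record. The brightest is also of a kind whose probes may match other transcripts. This brightest Dusp9 probe set read 877 and 1075 with BMP-2, against 739 and 784 without (0.35 ± 0.13 log2, SE, limma unadjusted p = 0.0221, adjusted p = 1.00). The second (1454737_at) read 1003 and 999 against 667 and 745 (0.51 ± 0.12 log2, SE, limma unadjusted p = 0.0014, adjusted p = 0.910), and the third read 721 and 730 against 515 and 693 (0.28 log2, 95% interval -0.06 to 0.62). Dusp16, which acts mainly on JNK and p38, read 709 and 841 against 597 and 639 (0.32 log2, limma unadjusted p = 0.0344, adjusted p = 1.00). None of these passed over all tested probe sets. The remaining 6 genes ran from -0.17 to 0.20 log2, and Dusp1, the immediate-early phosphatase of JNK and p38, was at -0.16.

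**Figure D5:**
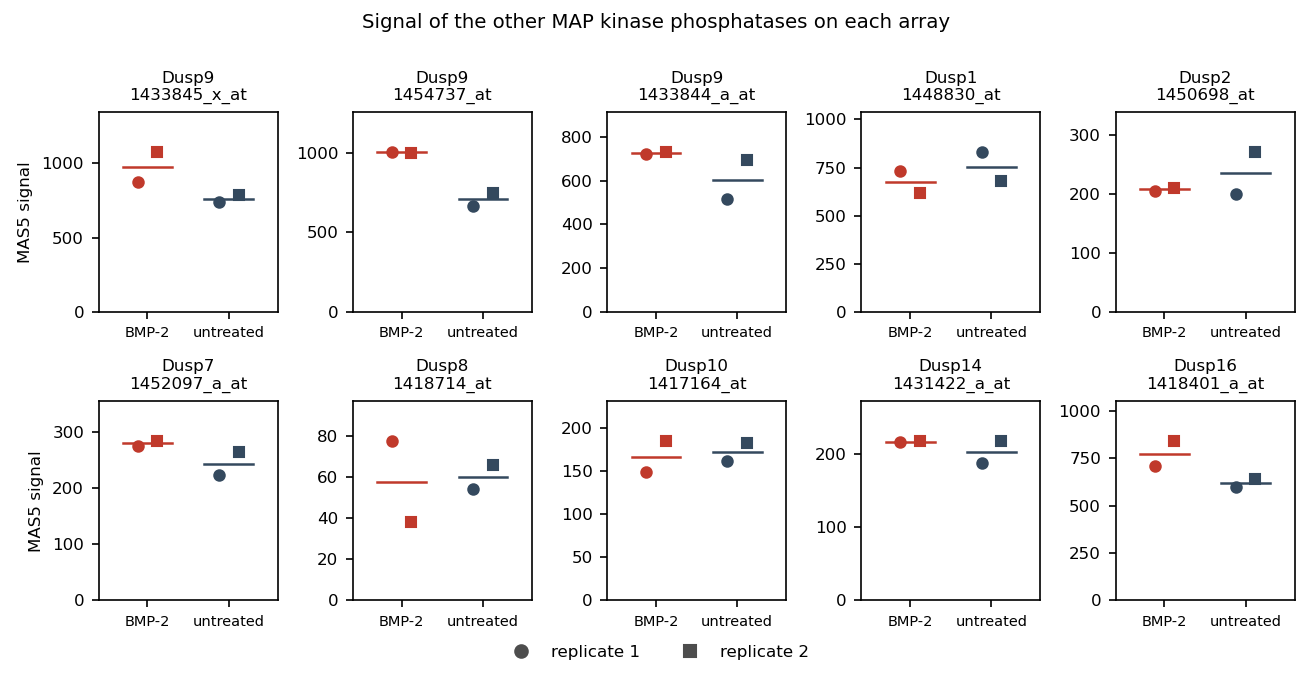
MAS5 signal (linear axis from 0) of the 3 tested Dusp9 probe sets and of the brightest probe set of the 7 other MAP kinase phosphatases, with BMP-2 treated arrays in red on the left and untreated arrays in dark blue on the right; circles are replicate 1, squares replicate 2 and lines the group means (n = 2 each). The 3 Dusp9 panels and the Dusp16 and Dusp7 panels show both treated arrays above both untreated ones.

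Downstream of ERK, 15 of 16 immediate-early and other ERK-responsive genes were tested, with 9 higher, 6 lower, a median of 0.03 log2 and a range of -0.52 to 0.56. The lowest was Atf3, a dim gene with 41.2 and 109 against 109 and 85.2. Egr1, a zinc finger factor induced within minutes of ERK activation, read 2768 and 1859 with BMP-2, against 2502 and 1858 without. Replicate 1 was above replicate 2 in both groups by more than the groups differed, and the difference was 0.07 log2 (95% interval -0.33 to 0.48). Fos differed by 0.23 log2 with overlapping groups (95% interval -0.24 to 0.71). The smallest p-values were those of Fosl1, an AP-1 subunit, with 134 and 166 against 100 and 103 (0.56 log2, limma unadjusted p = 0.0493, adjusted p = 1.00), and Phlda1, at 0.24 log2. Other ETS genes (7 of 8 tested) had 5 higher and 2 lower with a median of 0.06 log2, led by Ets1 at 0.53 (95% interval -0.10 to 1.17) and Elk1 at 0.32, whose dimmer probe set gave -0.31.

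The labelled cell type was checked against markers. All 8 embryonic stem cell markers were tested (Pou5f1, Nanog, Sox2, Zfp42, Klf4, Esrrb, Tdgf1 and Dppa5a), with summed signals of 90745 and 86444 in BMP-2 treated cells, against 90980 and 85599 in untreated cells, and a median difference of 0.00 log2. Of 8 fibroblast markers 2 were tested, Thy1 and Col1a2, with summed signals of 381 and 422 against 400 and 429, while Col1a1, Col3a1, Postn, Lum, Dcn and S100a4 were below the tested range. Endoderm markers were higher for 5 of 5 tested genes with a median of 0.18 log2 (4 of 5 after quantile normalization), with overlapping groups for each and none past an adjusted p of 0.05. Their summed signals were 611 and 737 with BMP-2, against 541 and 663 without. Of 5 tested mesoderm markers 3 were higher and 2 lower, with summed signals of 849 and 949 against 818 and 914, and of 4 tested neuroectoderm markers 1 was higher and 3 lower, with sums of 2162 and 2150 against 2487 and 2450 (none past an adjusted p of 0.05). In this last list Neurod1 and Map2 did not overlap, both lower with BMP-2, and Neurod1 read 1361 and 1303 against 1731 and 1532 (-0.29 log2, limma unadjusted p = 0.0191, adjusted p = 1.00). The part of such cells in the values of the ERK feedback genes was not tested.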

How the data were processed

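The deposited values are linear intensities, MAS5 signals per probe set, per the submitters' processing notes; neither its version nor a genome build is given in the sources used here. Each of the 4 arrays had a 2%-trimmed mean of 500.0, the scaling target. No detection calls were used, and log2 ratios of dim probe sets vary widely. The log2 of each signal was used with nothing added to it. Array medians differed by 0.21 log2, under the limit of 0.3, so the signals were used as scaled. Control probe sets (64) were dropped, and those above the 40th percentile of mean log2 signal were tested with limma 3.58.1 in R 4.3.3 (lmFit, eBayes with an intensity trend, 2 residual and 7.98 prior degrees of freedom), two-sided, with Benjamini-Hochberg adjustment over all 27022. All unadjusted and adjusted p-values and 95% intervals come from this fit, which was tested on simulated data, unless another setting is named. The simulated noise was normal and followed the intensity trend alone, without shifts between arrays. That run therefore does not give the error rate of the fit in these data. With 2 arrays per group an exact permutation test cannot reach 0.05, and none was run.

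Symbols come from the platform annotation and matched those of RefSeq by gene identifier for the 10 genes. Named genes are all members, the 2 smallest p-values of each pathway list, and Dusp9, Egr1, Fos, Fgf4, Fgfr1, Id1, Id2 and Id3. The values given for Araf, Atf3, Dusp1 and the marker genes were chosen after they were seen. Members, lists and motifs were chosen with earlier results of these data known. The fit was repeated with quantile normalization or median centring, with a pseudocount of 25.4, unfiltered or filtered at the 60th percentile, without the intensity trend, with a replicate block, at an adjusted p under 0.1 and without each array, and a gene was also given by the mean of its probe sets. Centring on the tested probe sets alone was added after seeing the data.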

Additional observations from a re-analysis of the deposited data

How the results depend on the processing

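The count of all probe sets past the threshold was 5 and depended on the setting: 8 with the filter at the 60th percentile, 11 with the replicate block, 11 at an adjusted p under 0.1, 17 with centring on the tested probe sets, 119 with centring on all probe sets, 0 without the intensity trend (1023 at an unadjusted p under 0.05), and 16 to 141 when an array was left out. Of the ERK feedback probe sets 0 passed, except for Dusp5 after centring on all probe sets (1) and without BMP-2 replicate 2 (0 to 1 over the 4 arrays left out). In both of these fits the prior degrees of freedom were infinite. The median of the 10 genes moved by less than the spread between replicates in every setting. That spread, the pooled SD of the 10 genes' median log2 signal on each array, was 0.087, against a median difference of 0.059. A median of 0 would thus also have met this rule. The median was 0.028 log2 with centring on the tested probe sets and 0.010 without untreated replicate 2. The same replicate numbers do not show that arrays are paired. Over the tested probe sets, the differences between replicates 1 and 2 in the 2 groups correlated at 0.15. Log2 differences between treated and untreated arrays had SDs of 0.345 and 0.353 for equal numbers and 0.385 and 0.371 for unequal numbers. Between replicates of a group the SDs were 0.373 (BMP-2) and 0.370 (untreated). The replicate block left the ERK feedback count at 0. At an unadjusted p under 0.05 in limma that count was 5 with the block, against 3 in the main fit. It was 4 with quantile normalization and 4 unfiltered, and stayed at 3 with the pseudocount and with the filter at the 60th percentile. The same count fell to 2 with either kind of centring and to 1 without the intensity trend.

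Signs turned under quantile normalization for Etv5 on its brightest probe set (0.0039 log2) and for 1 dim Spred1 probe set (-0.0013), and under centring on the tested probe sets for that Spred1 probe set (-0.0066) and 2 of Spry4 (-0.031 and -0.021). With arrays left out, ranges that cross 0 were found for Spry4 (-0.049 to 0.049, -0.13 to 0.15 and -0.042 to 0.18 on 3 probe sets), Spred1 (-0.13 to 0.21, -0.18 to 0.42, -0.11 to 0.050, -0.45 to 0.11 and -0.47 to 0.51 on 5), Spred2 (-0.26 to 0.47, -0.32 to 1.30 and -1.63 to 0.31 on 3 dimmer ones), Etv5 (-0.065 to 0.030, -0.15 to 0.060 and -0.19 to 0.18), Egr1 (-0.21 to 0.36), Fos (-0.029 to 0.50), Fgfr1 (-0.087 to 0.18) and Nras (-0.0025 to 0.26). Dusp4, Dusp5, Dusp6, Spry1, Spry2, Etv4 and the brightest probe sets of Spred1 and Spred2 kept their sign in every setting. Id1, Id2 and Id3 passed in 11 of 12 settings, the exception being the fit without the intensity trend. The causes were not tested.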
